A study of Mus musculus with 4 samples.

Results

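The genes described are those of voltage-gated and related ion channels: every gene whose platform symbol begins with Kcn, Cacn, Hcn, Clcn, or Scn and a digit. The rule found 88 probe sets for 68 genes, out of 8251 genes with 1 symbol on the array, and each gene is represented by its probe set with the highest mean log2 signal. RNA came from area CA1 of the hippocampus of young male C57BL/6J mice, which an experimenter had handled and which received no other treatment. The 4 control samples, 1 array each, were collected 1, 2, 4 and 6 h after other, shocked mice had their last shock. The shocked mice are not analysed here. With a single array per hour, nothing below that sets hours against each other has a replicate check. The number of mice behind a sample is not stated.

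Ion channels set the electrical behaviour of neurons. Sodium channels start the action potential, potassium channels end it and hold the resting potential, calcium channels turn depolarisation into calcium entry, HCN channels pass a depolarising current on hyperpolarisation, and ClC proteins carry chloride across the plasma membrane or exchange it for protons in endosomes and lysosomes. Most pores are built from large pore-forming subunits and smaller auxiliary ones. In CA1 pyramidal neurons they shape dendritic excitability, firing patterns and transmitter release.

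In CA1 tissue more than 50% of these genes were above the signal level used here, a smaller share than of all genes. A gene was counted as above the level when its average log2 signal was at or over that of the pooled 40th percentile of all values, a signal of 116.4. The level is a rank among the values and does not show that a transcript was detected. Signals are intensities that the authors appear to have scaled to a common mean per array. By that measure 38 of 68 ion channel genes were above it (55.9%), against 5546 of all 8251 genes (67.2%). Those above the level on every array numbered 33 (48.5%, against 58.9% of all genes), and 18 were above it on no array (26.5%, against 21.4%). The families differed. Above the level were 22 of 42 potassium channel genes, 8 of 12 calcium channel genes, 4 of 6 chloride channel and transporter genes, both HCN genes and 2 of 6 sodium channel genes. Within the potassium channels, 4 of 5 K2P background channel genes but 3 of 11 inward rectifier genes were above it. A probe set's signal depends on how well its probes bind, so signals are compared below between arrays for 1 gene and not between genes.

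The genes just below the level were Clcn2 (96.5, as the geometric mean of floored signals), Kcnj6 (101), Kcnj3 (106) and Clcn5 (111), and those just above it were Kcnc1 (124), Kcns1 (127), Kcnab3 (133) and Kcnj11 (143). Of 28 measured genes from a list of channels known from CA1 neurons, 19 were above the level (67.9%), close to the 67.2% of all genes. Of 10 measured genes from a list known mainly from tissues outside the brain, 2 were above it (20%), Clcn1 and Kcnq1. That second list holds the skeletal muscle channel genes Cacna1s and Cacng1, the kidney channel gene Kcnj1 and the sensory neuron channel gene Scn10a, all below the level. The lists were drawn up with earlier results of these data known. Of the 4 measured CA1 pyramidal markers, Wfs1, Neurod6 and Pou3f1 were above the level and Camk2a was below it. In bulk tissue, fewer cells of a type and less RNA per cell cannot be told apart.

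**Figure D1:**
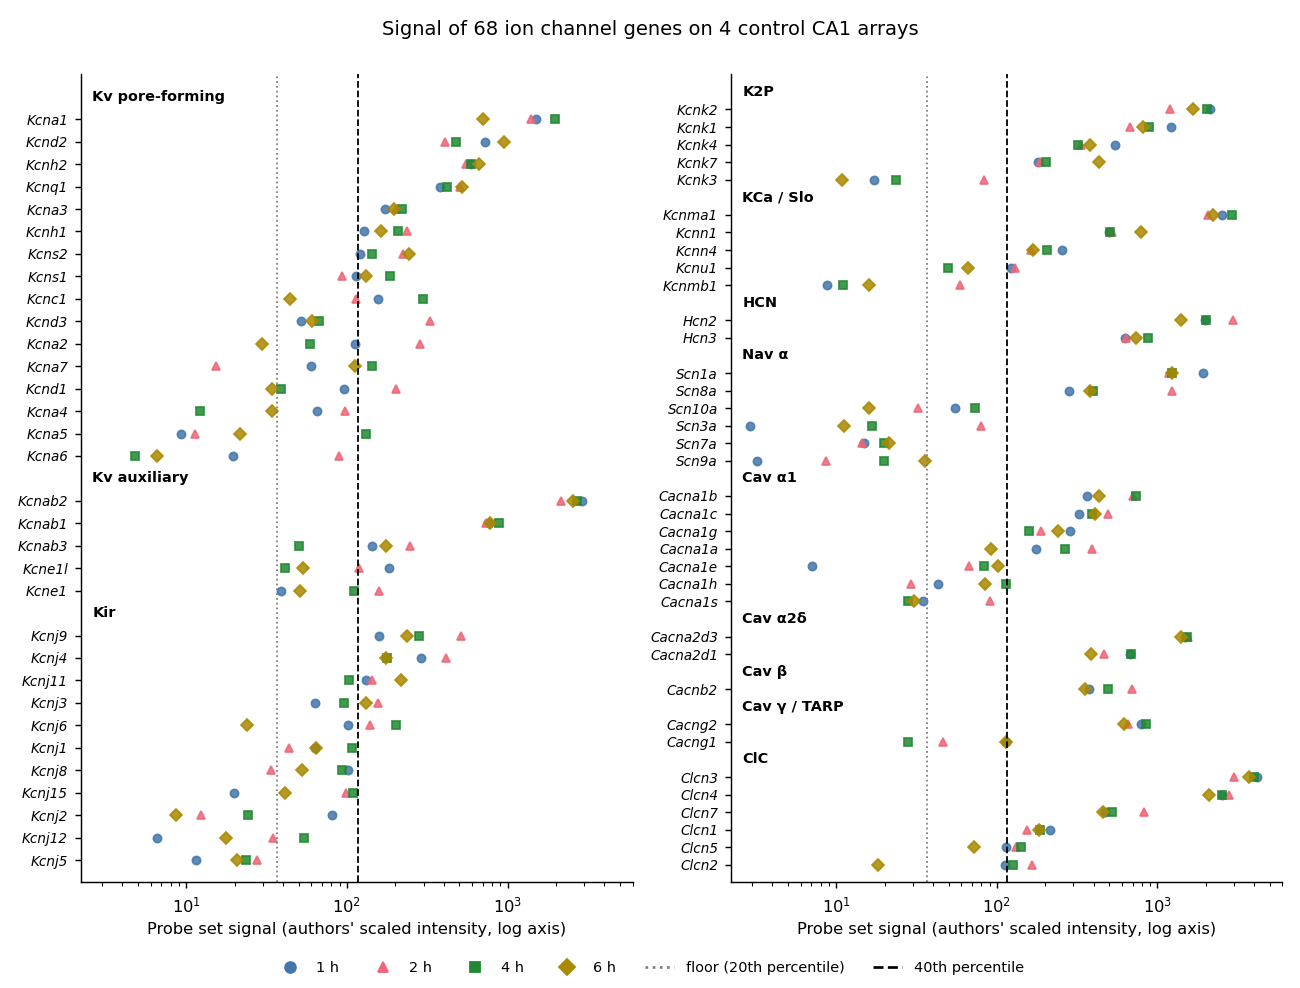
Signal of the 68 ion channel genes on the 4 control arrays, as the authors' scaled intensity on a log axis, grouped by family and sorted within it by mean log2 signal. Each row is 1 gene and each symbol 1 array (1, 2, 4 and 6 h); the dotted line is the floor of 36.8 and the dashed line the level of 116.4. The sodium channel rows split into Scn1a and Scn8a to the right of the dashed line and 4 genes to its left.

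Neighbouring channel genes could lie on opposite sides of the level. In the RefSeq gene order Scn1a, Scn9a and Scn7a follow each other on chromosome 2 with no other coding gene between them. Scn1a, a pore-forming sodium channel subunit prominent in inhibitory interneurons, was above the level on all 4 arrays. Scn9a, known from nociceptive neurons, and Scn7a, a sodium-sensing relative, were under the floor of 36.8 (the pooled 20th percentile) on all 4. The 120 bases before the start of each gene are shown because the probe sets of these adjacent genes lay on opposite sides of the level. Since probe binding differs between probe sets, this does not show that the neighbours of Scn1a had less transcript. They are from RefSeq, build GRCm38.p6, minus strand, written 5′ to 3′ with each CG dinucleotide in capitals, and cover chr2:66440838-66440957 for Scn1a, chr2:66634963-66635082 for Scn9a and chr2:66784911-66785030 for Scn7a.
Scn1a: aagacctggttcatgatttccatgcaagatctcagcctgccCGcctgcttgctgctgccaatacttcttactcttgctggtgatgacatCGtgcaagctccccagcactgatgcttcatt
Scn9a: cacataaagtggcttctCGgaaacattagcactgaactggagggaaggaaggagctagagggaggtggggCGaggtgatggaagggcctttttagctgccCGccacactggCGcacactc
Scn7a: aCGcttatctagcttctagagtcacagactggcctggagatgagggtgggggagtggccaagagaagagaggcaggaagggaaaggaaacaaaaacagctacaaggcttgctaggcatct
The stretches held 2, 4 and 1 such dinucleotides, and the full windows of 300 bases held 5, 9 and 3. By this count the window of Scn1a lay between those of Scn9a and Scn7a. Only 53 of the 68 genes (77.9%) have such a window, under the 80% needed, so a check of this property over all the genes is void. Other adjacent genes were Kcna5, Kcna1 and Kcna6, of which Kcna1 alone was above the level, and Kcna3 and Kcna2, of which Kcna3 alone was. The adjacent genes Kcnj6 and Kcnj15 were both below it, as were Kcnj5 and Kcnj1.

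The 2 h array stood apart in measures other than ion channels. For Gapdh, signal from the 3' end relative to the 5' end of the transcript was 1.08 at 2 h and between 3.62 and 4.10 on the others. For Actb the 2 h array was also lowest but less far apart, with 1.72 against 2.27, 2.59 and 2.93 at 1, 4 and 6 h. The summed signal of 5 measured choroid plexus markers, 3 of them above the level, was 1895 at 2 h and 933, 729 and 1198 at 1, 4 and 6 h. At 2 h against 1 h Ttr (892 and 222) and Igfbp2 (711 and 317) were higher and Kl (177.5 and 309) was lower. For 3 CA3 markers, all above it, the sum was 2799 against 1856, 1888 and 2082, and for 6 thalamus and habenula markers, 5 above it, 2497 against 1660, 1982 and 1418; Prkcd counts in both sums. Microglia markers, 4 of 6 above the level, summed to 4512 against 3634, 3339 and 3908, and 4 pan-neuronal markers, all above it, to about 28820 against 23610, 25440 and 24460. Members of these lists differed. At 2 h against 1 h the microglia marker Csf1r (1334 and 1724) was lower. Of the pan-neuronal markers Syt1 (3671 and 722) was higher and Snap25 (about 17940 and 18420) changed little. The sum for 4 CA1 pyramidal markers was 3864 against 4014, 4671 and 4279. Also lowest at 2 h was the sum for 6 interneuron markers, about 22630 against 26660, 26780 and 27000. Members of these 2 lists differed as well. Wfs1 (1877 at 2 h and 2293 at 1 h) and Neurod6 (1012 and 1195) were lower, and Pou3f1 (623 and 484) and Camk2a (351 and 41) were higher. Gad1, Pvalb, Sst and Slc32a1 were lower, and Gad2 (160 and 19.2) and Npy (2479 and 2284) were higher. For 4 dentate markers the sum was 1859 against 2287, 2153 and 2194, and for 5 endothelial markers 884 against 1162, 1304 and 1075. Oligodendrocyte markers summed to about 19890 against 19940, 25970 and 21110. The sum for astrocyte markers, about 21960 against 19980, 20770 and 20660, was highest at 2 h. At 2 h against 1 h 5 of the 7 measured were higher, among them Aldoc (about 12280 and 8996). Gfap (1740 and 2165) and Gja1 (4422 and 6125) were lower. No marker was at 0 on any array. Their part in the 2 h values of the ion channel genes was not tested.

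Among sodium channel genes, Scn8a had the largest difference from the 1 h array of any ion channel gene above the level. Scn8a encodes the pore-forming subunit concentrated at the axon initial segment and nodes of Ranvier. Its signals were 281, 1236, 399 and 379.6 at 1, 2, 4 and 6 h. The 2 h array alone was high, 4.40 times the 1 h signal and 3.10 times the next highest. A second Scn8a probe set could not be read against this, since its 4 signals of 3.4 to 14.7 were all under the floor. Scn1a was high on the 1 h array instead, with 1933, 1184, 1225 and 1234, and its second probe set had the same order of 1 h above the rest, with 680.5, 334, 419 and 443. The remaining members, Scn3a, Scn7a, Scn9a and Scn10a, reached the level on no array, and only the 79.6 of Scn3a at 2 h and the 55.2 and 73.3 of Scn10a at 1 and 4 h were above the floor.

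Voltage-gated potassium channel (Kv) pores were the largest family, with 9 of 16 genes above the level. Kcna1, a delayed rectifier subunit of axons whose loss causes episodic ataxia and seizures, had 1509, 1392, 1964 and 699. The 6 h array was low, 2.16 times below the 1 h signal and 2.81 times below the 4 h signal. Kcnc1, which lets fast-spiking interneurons fire at high rates, varied most of all 38 genes, with 157, 114, 299 and 43.9. Its 6 h signal, close to the floor, was 6.82 times below its 4 h signal. The A-type channel gene Kcnd2, which limits back-propagating spikes in CA1 dendrites, had 725, 410.4, 474 and 949, highest at 6 h and lowest at 2 h, on a probe set marked as incomplete.

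Steadier members of the family were Kcnh2, the ERG channel gene known from cardiac repolarisation, and Kcna3, also known from lymphocytes. Kcnh2 had 592, 554, 588 and 666, a range of 1.2-fold over the 4 arrays. Kcna3 had 173, 201, 220.5 and 196, a range of 1.28-fold. Kcnh1, an ether-à-go-go channel gene of the brain, was lowest at 1 h, with 127, 236, 209 and 163. Kcns1 and Kcns2 encode silent subunits that form no channel alone and modify others. Kcns2 had 120, 223, 143 and 244, with the 2 and 6 h arrays high. Kcns1 had 113, 93.2, 186 and 131, so it reached the level on 2 of the 4 arrays only. Kcnq1, a cardiac and epithelial channel gene, had 379, 507, 418 and 517, but on a probe set whose name ending marks an incomplete set, and its other probe set had 32.9, 44.4, 23.2 and 29.8.

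Of the 7 Kv pore genes below the level, 3 crossed it at 2 h only (Kcnd3, Kcna2 and Kcnd1) and 2 at 4 h only (Kcna5 and Kcna7). Of all 8251 genes, above or below it on average, 1.73% were above the level at 2 h only and 2.19% at 4 h only. Over all 68 ion channel genes these shares were 5.88% and 2.94%. The counts out of 7 are taken among genes below the level and have no matching share here. Kcnd3, another A-type gene, had 52.1, 329.6, 66.8 and 60.4, and the 2 h signal was 6.33 times that at 1 h. Kcna2, a partner of Kcna1 in axonal channels, had 112, 284, 58.6 and 29.4. Kcna5, known from heart and vessels, had 131 at 4 h and was under the floor on the other arrays, on a probe set marked as shared. Its other probe set had 50, 23.4, 15.9 and 29.4, lowest at 4 h. Both Kcnd3 and Kcna2 stood highest at 2 h, and Kcnd1, with 96.4, 202, 38.6 and 34.2, did too. The A-type subunit gene Kcna4 had 64.9, 96.6, 12.1 and 34.3 and was above the level nowhere, and Kcna6 had 89.2 at 2 h and was under the floor on the other arrays. Kcna7, known from muscle, ran against these, with 59.4, 15.4, 144 and 112, lowest at 2 h.

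Auxiliary Kv subunits were represented by the cytoplasmic beta subunits, which speed inactivation and guide trafficking. Kcnab1 had 766, 734, 884 and 772, a range of 1.2-fold and among the narrowest of all members. Kcnab2 had 2921, 2139, 2707 and 2557 on its brightest probe set. Kcnab3 had 144, 245, 50.6 and 174, with the 4 h array low, 2.85 times below the 1 h signal, which was also the nearest. The single-pass subunit genes Kcne1 (39.1, 158, 111 and 50.9) and Kcne1l (182, 119, 41.0 and 53.1) were below the level on average, and each crossed it on at least 1 array.

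Inward rectifiers, which hold the resting potential and, in the G protein-gated branch, carry slow inhibition, had the smallest share of genes above the level among the potassium channel families. Kcnj9, a G protein-gated subunit of hippocampal neurons, had 158, 513, 279.8 and 236. The 2 h array was the highest, 3.25 times the 1 h signal, and a second probe set had 167, 404, 166 and 134. Kcnj9 was thus high at 2 h on both. Its partner genes were below the level, with 63.7, 157, 95.8 and 132 for Kcnj3 and 101, 139.9, 203 and 23.8 for Kcnj6. Kcnj4, a strong rectifier of forebrain neurons, had 291, 413, 177 and 176, higher at 1 and 2 h than at 4 and 6 h. Kcnj11, the pore of the ATP-sensitive channel, had 132, 144, 103 and 216. Kcnj8, the vascular counterpart of Kcnj11, had 101, 33.8, 93.7 and 52.5 and was above the level on no array. The other 5, Kcnj1, Kcnj2, Kcnj5, Kcnj12 and Kcnj15, were above it on no array either. Their highest signals were 109.6 for Kcnj15 and 108 for Kcnj1, both at 4 h, and Kcnj5 was under the floor on every array.

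The K2P channels carry background potassium current, and 3 of the 4 genes above the level were highest at 1 h. Of all genes above the level 23.6% were, and a count over 4 genes on 1 array is small. Kcnk2, a mechano- and lipid-sensitive channel gene, had 2138, 1194, 2044 and 1665. Kcnk1, expressed by neurons and astrocytes, had 1209.7, 673, 891 and 811, and the related mechanosensitive gene Kcnk4 had 540.1, 335, 321 and 378. At 2 h these stood 1.79, 1.80 and 1.61 times below 1 h, each short of 2-fold. Kcnk7, whose product has not been shown to conduct on its own, went the other way, with 182, 185, 202 and 429.8. Its 6 h array alone was high, 2.37 times the 1 h signal. The acid-sensitive channel gene Kcnk3 had 83.5 at 2 h and was under the floor on the other arrays.

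Calcium-activated channels couple calcium entry to repolarisation. Kcnma1, the pore of the large-conductance BK channel, had 2505, 2057, 2922 and 2229.5, within a 1.42-fold range. Kcnn1, of the small-conductance SK channels that set the afterhyperpolarisation, had 496, 518, 503 and 795, high at 6 h only. Kcnn4, of the intermediate-conductance type found in blood and immune cells, had 254, 164, 204 and 167. The remaining genes, the sperm channel gene Kcnu1 (122, 129, 49.6 and 65.7) and the smooth muscle subunit gene Kcnmb1 (58.8 at 2 h and under the floor elsewhere), were below the level.

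Both HCN genes were above the level on every array. Hcn2 had 1970, 2935, 1992 and 1404, high at 2 h, but a second probe set for the same gene had 1771, 1132, 1917 and 1238, low at 2 h. Both probe sets carry a name ending for shared or incomplete sets, as do 11 of the 68 probe sets used. Hcn3 had 629, 635, 872 and 738, a range of 1.39-fold.

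The calcium channel pore genes Cacna1b, Cacna1c and Cacna1g were above the level on every array. Cacna1b, the N-type pore that drives transmitter release, had 365, 706, 739.6 and 429, with the 2 and 4 h arrays high and the 1 and 6 h arrays low. The P/Q-type pore gene Cacna1a, the other main release channel, had 175, 393, 267 and 91.7. It was likewise high at 2 and 4 h, and its 6 h signal was below the level. Cacna1c, an L-type pore that signals to the nucleus, had 322, 492, 393 and 411, lowest at 1 h. The T-type pore gene Cacna1g ran the other way, with 285, 189, 158 and 241. On the probe sets used, the T-type Cacna1h, the R-type Cacna1e and the muscle L-type Cacna1s were above the level on no array. Of these Cacna1e had 7.1, 67, 83.5 and 102, lowest at 1 h. Its second probe set, marked as shared, ran the other way, with 150, 48.3, 32.7 and 31.7, and was above the level at 1 h. Cacna1h was highest at 4 h with 114, and Cacna1s was highest at 2 h with 91.1.

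Auxiliary calcium channel subunits included the steadiest ion channel gene above the level. Cacna2d3, an extracellular subunit that raises channel number at the surface, had 1477, 1538, 1517 and 1411, within 1.09-fold. Cacna2d1, the gabapentin-binding counterpart, had 670.1, 466, 683 and 387, lower at 2 and 6 h. Cacnb2, a cytoplasmic subunit, had 376, 690.5, 492 and 355, high at 2 h. Cacng2, stargazin, which serves mainly as an auxiliary subunit of AMPA receptors, had 794, 656, 849 and 618. These 4 genes did not share an order of the arrays. Cacng1, the skeletal muscle gamma subunit, had 114, 46.5, 28.1 and 115 and was below the level on every array.

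Of the 6 ClC genes, 4 were above the level. Clcn3, an endosomal and synaptic vesicle exchanger whose loss leads to degeneration of the hippocampus in mice, had 4160.4, 2982, 3974 and 3717. Clcn4, its close relative, had 2538, 2784, 2518 and 2101, a range of 1.32-fold, and the lysosomal exchanger gene Clcn7 had 469.9, 822, 519 and 456, high at 2 h. Clcn1, the skeletal muscle chloride channel gene, had 216, 155, 185 and 183, though its second probe set, marked as incomplete, had 15 to 59.8. The cell-surface channel gene Clcn2 (112, 165, 127 and 18.2) and the kidney exchanger gene Clcn5 (114, 132, 142 and 71.8) each crossed the level on 2 arrays.

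No ion channel gene had a trend over the hours past the threshold. The slope of log2 signal per hour was fitted with limma over all 4 arrays and 7237 probe sets, and 0 were called after adjustment (0% of all, 0 of the 49 ion channel probe sets). The lowest adjusted p was 0.9996. Without adjustment, 196 of 7237 (2.71%) and 1 of the 49 had a p under 0.05. That 1 was Kcnk7, whose log2 signal sloped up by 0.24 ± 0.10 per hour (SE over 4 arrays, limma adjusted p = 0.9996), with all 3 later arrays above the 1 h array. Kcns2 (0.13 ± 0.12) and Kcnn1 (0.12 ± 0.07) had the next steepest upward slopes. The steepest downward ones were those of Kcnc1 (-0.26 ± 0.21), Cacna1a (-0.24 ± 0.15) and Kcnj4 (-0.21 ± 0.10). Over the 49 probe sets, 21 sloped up and 28 down, with a median of -0.01 against 0.01 over all. With 2 residual degrees of freedom, only steep slopes could have been called.

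Differences of at least 2-fold from the 1 h array were few and near the background of all genes. At 2 h, 3 of 38 genes were at least 2-fold higher, against 5.7% of all 5546 genes above the level, and 0 were lower, against 2.98%. The 3 were Scn8a, Kcnj9 and Cacna1a (2.25 times). Close below came Cacna1b (1.94 times), Kcns2 (1.86) and Kcnh1 (1.86). At 4 h, 1 gene was higher, Cacna1b at 2.03 times (background 3.05%), and 1 lower, Kcnab3 (2.42%). At 6 h, Kcnk7 and Kcns2 (2.03 times) were higher (3.26%), and Kcnc1, 3.57 times below 1 h, and Kcna1 were lower (2.69%). Cacna1b at 4 h and Kcns2 at 6 h were under 2-fold after quantile normalization or centring of the arrays on their medians. With counts of 0 to 3 genes, these shares say nothing particular about ion channels.

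Few genes stood apart on 1 array. At least 2-fold above or below each of the other 3 arrays lay 0 genes at 1 h (background 1.17%), Scn8a at 2 h (2.33%), Kcnab3 at 4 h (1.32%) and Kcnc1 and Kcnk7 at 6 h (1.59%). Scn8a and Kcnk7 were above and Kcnab3 and Kcnc1 below. The low values of Kcnab3 (50.6) and Kcnc1 (43.9) lie within 2-fold of the floor. Over the 4 arrays 12 of 38 genes stayed within 1.5-fold (31.6%, against 48.8% of all genes above the level) and 25 within 2-fold (65.8%, against 79.6%), and 4 ranged over at least 4-fold (10.5%, against 3.70%). The 5 widest ranges were those of Kcnc1, Kcnab3 (4.85-fold), Scn8a, Cacna1a (4.28-fold) and Kcnj9. Ranges were wider among dim genes. The 14 ion channel genes between the 40th and 60th percentiles had a median range of 2.06-fold, against 1.88-fold for all genes there. The 24 brighter ones had a median of 1.62-fold against 1.43-fold.

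Across the 38 genes the SD of the log2 difference between the 4 and 6 h arrays was 0.78, against 0.53 over all genes. Without Kcnc1, left out after its values were seen, it was 0.66, and the 2 and 6 h arrays then had the widest difference (0.73). Kcnc1 reached the level on the 1 and 4 h arrays only. For all genes the pairs with the 2 h array were the widest, with 0.62, 0.58 and 0.61 against 1, 4 and 6 h, and for ion channels these were 0.72, 0.69 and 0.74. Kcnc1, Cacna1a and Kcna1 were 6.82, 2.91 and 2.81 times lower at 6 h than at 4 h, and Kcnab3 and Kcnk7 were 3.43 and 2.13 times higher.

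The 38 genes together lay near the 1 h array at every hour, and family medians differed in sign. The median log2 difference from 1 h was 0.02 at 2 h, 0.07 at 4 h and -0.07 at 6 h over the 38 genes, against -0.01, 0.01 and 0.02 over all genes. The 2 h median was below 0 after quantile normalization (-0.0695) or median centring (-0.0534). At 2, 4 and 6 h, 20, 23 and 17 of 38 genes were higher than at 1 h (52.6%, 60.5% and 44.7%), near the 48.8%, 50.7% and 51.9% of all genes. Calcium channel genes had a median of 0.33 at 2 h with 5 of 8 higher, 0.19 at 4 h with 7 of 8 higher and -0.16 at 6 h with 2 of 8 higher. Potassium channel genes had -0.08, 0.08 and 0.18, with 10, 12 and 13 of 22 higher. Among these the 4 K2P genes had -0.76, -0.25 and -0.44, and the 9 Kv pore genes had -0.10, 0.35 and 0.21. Chloride channel genes had -0.17, -0.04 and -0.20, with 2, 1 and 0 of 4 higher. Over 13 other settings, 2 of them chosen after the data were seen, the calcium channel median kept its sign at each hour, between 0.0589 and 0.61 at 2 h, 0.0958 and 0.29 at 4 h, and -0.36 and -0.033 at 6 h. The low end at 2 h came from leaving out probe sets marked as shared or incomplete, or genes not above the level on every array. Each of the 8 calcium channel genes had only 1 probe set. Averaging or exchanging the probe sets of a gene therefore could not move their median, and keeping its sign there shows nothing. Updated symbols, which changed no member, and floors at the 10th and 30th percentiles left the calcium medians exactly the same. Those settings show nothing about the sign either. The potassium and chloride medians did not keep their signs. At 2 h the potassium median ran from -0.28 to 0.046 and the chloride median from -0.47 to 0.41. The potassium median had the opposite sign in 3, 1 and 2 of the 13 settings at 2, 4 and 6 h, and the chloride median in 4, 4 and 1. These settings turned signs through the filter, the choice of probe set or the reference array, while quantile normalization and median centring turned none of them.

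**Figure D2:**
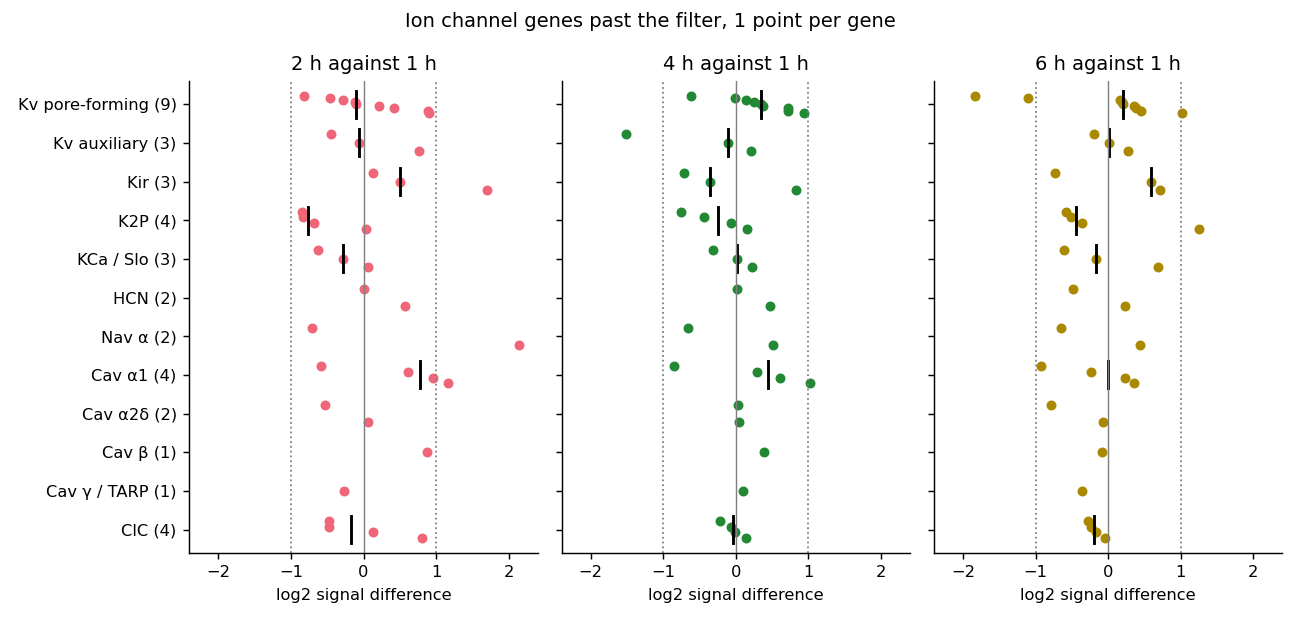
Log2 signal difference of the 38 ion channel genes above the level at 2, 4 and 6 h against 1 h, 1 point per gene, by family with the number of genes in brackets. Black bars are medians of families of 3 or more genes and dotted lines mark 2-fold. Most points lie between the dotted lines in each panel; Scn8a at 2 h and Kcnc1 at 6 h lie farthest from 0.

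Probe sets for the same gene often disagreed, so a small difference above depends on the probe set used. Of the 68 genes 18 had more than 1 probe set, and 9 had more than 1 above the level. All such probe sets of a gene had the same sign at 2 h against 1 h in 5 of those 9 genes (55.6%), in 3 at 4 h and in 4 at 6 h. Over all 864 such genes the share was 51.3%, 47.0% and 47.7%. Kcnj9 (log2 differences of 1.70 and 1.27 at 2 h), Scn1a (-0.71 and -1.03), Clcn4 (0.13 and 0.79), Clcn7 (0.81 and 0.01) and Kcnab1 (-0.06 and -0.25) were the genes in which they agreed at 2 h. Kcnab2 disagreed most. Its brightest probe set had 2921 at 1 h and 2139 at 2 h, and the other, with almost the same mean, had 1898 and 4678, then 2313 and 2011. The name of the brightest one marks probes shared between transcripts. Had the second represented the gene, Kcnab2 would have been 2.46 times as high at 2 h. Kcnd2 (-0.82 and 0.48), Hcn2 (0.58 and -0.65) and Clcn3 (-0.48, 0.10, 0.01 and 0.92) also had probe sets on both sides of 0.

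**Figure D3:**
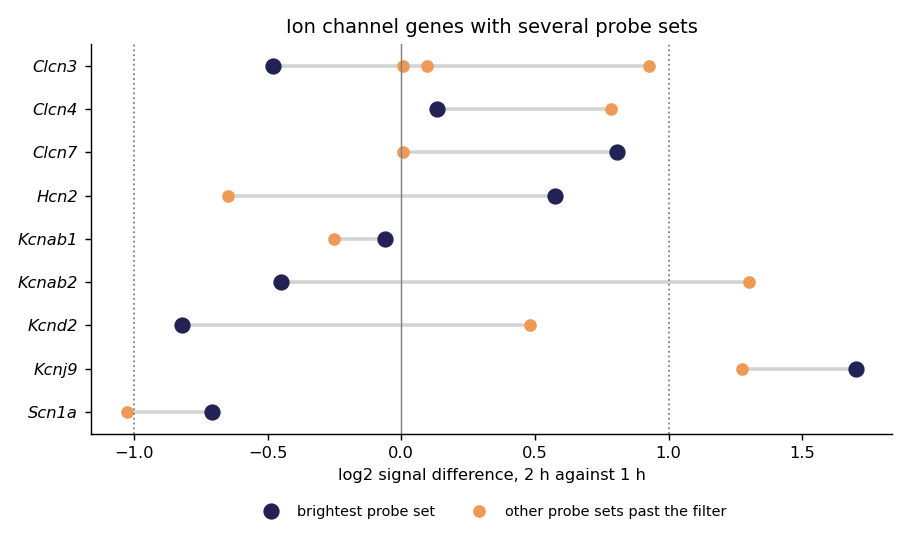
Log2 signal difference at 2 h against 1 h for each probe set above the level of the 9 ion channel genes with several such probe sets. Large dark points are the brightest probe set and small points the others; dotted lines mark 2-fold. Kcnj9 and Scn1a have all points on one side of 0, while those of Kcnab2, Hcn2, Kcnd2 and Clcn3 straddle it.

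The dim ion channel genes leaned to the 2 h array by a count that was chosen after the data were seen. Of the 30 genes below the level, 13 had their highest signal at 2 h (43.3%), against 530 of all 2705 genes below it (19.6%). The 4 h array was highest for 9 (30%, against 25.1% of all) and the 1 h array for 3 (10%, against 13.75%). The 6 h array was highest for 2 (6.67%, against 26.1% of all), and 3 genes (Kcnj5, Scn7a and Scn9a) were at the floor on all 4. The 13 were Kcna2, Kcna4, Kcna6, Kcnd1, Kcnd3, Kcne1, Kcnj3, Kcnk3, Kcnmb1, Kcnu1, Scn3a, Cacna1s and Clcn2. Of the 68 genes, 46 had a 2 h signal above the level (67.65%), against 39, 41 and 37 at 1, 4 and 6 h (57.35%, 60.29% and 54.41%). Over all genes the share above it was 66.8%, 68.5%, 69.5% and 69.5% at 1, 2, 4 and 6 h. The ion channel share was thus near that of all genes at 2 h and lower at 1, 4 and 6 h. Genes above the level at 2 h and on no other array were Kcna2, Kcnd1, Kcnd3 and Kcne1 (5.88% of the 68, against 1.73% of all genes). These counts rest on a single array and on signals close to the floor.

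**Figure D4:**
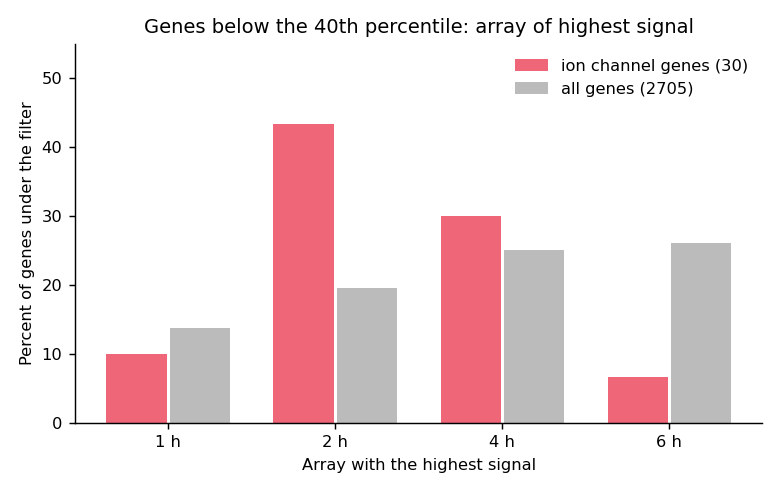
Percent of genes below the level whose highest floored signal was on the 1, 2, 4 or 6 h array, for 30 ion channel genes and for all 2705 genes below it. Genes at the floor on every array have no highest one and count in the total only. The ion channel bar is the taller at 2 h (43.3% against 19.6%) and the shorter at 6 h (6.67% against 26.1%). This count was chosen after the data were seen.

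Genes that work with these channels or carry ions in other ways gave these values. Of channel partners and anchors, 15 of 20 measured were above the level, limma called 0, and 0 were at least 2-fold from 1 h at any hour. The farthest at 2 h were Calm2, a gene for calmodulin, the calcium sensor of many channels, with 525, 290.5, 504 and 463, and Akap9, a kinase anchor, with 202, 311, 311 and 238. Intracellular and TRP-type channels had 7 of 14 above the level, with 0 called by limma and 1 at least 2-fold higher at 6 h. Trpc1, a store- and receptor-linked cation channel gene, had 233, 406, 453 and 293, and the ryanodine receptor gene Ryr3 had 327, 457, 414 and 293. Other chloride and anion channels had 6 of 9 above the level and 0 called by limma. Of these, 1 was at least 2-fold higher and 1 lower than 1 h at 2 h, and 1 was higher at 6 h. Clns1a, a chaperone once described as a chloride channel, had 732, 1653, 920.3 and 902, and the mitochondrial porin gene Vdac2 had 984, 471, 686 and 1000. All 5 measured genes of the sodium and potassium pump were above the level, with 0 called by limma. Of these, 1 was at least 2-fold higher than 1 h at 2 h and 1 lower at 6 h. The pump's beta subunit gene Atp1b2, of glia, had 222, 653, 266 and 341 and its regulator gene Fxyd7 had 491, 682, 539 and 205.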

How the data were processed

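One probe set intensity per array was deposited for 12488 probe sets of an Affymetrix mouse array, 66 of them manufacturer controls. The software behind them was not given in the sources used here. After trimming 2% at each end every array had a mean intensity of 500.3, so the deposited values appear scaled to it. They were used as deposited, raised to a floor at the pooled 20th percentile (36.8) and put on a log2 scale. Tests used probe sets with a mean at or above the pooled 40th percentile (116.4). Symbols came from the platform annotation: 10833 probe sets had 1 symbol, 396 several and 1193 none, and all 68 members kept their symbol when updated by gene identifier. The trend used limma 3.58.1 in R 4.3.3, with a variance prior that follows the mean, and its two-sided p-values were adjusted by Benjamini-Hochberg over all 7237 tested probe sets, with a threshold of 0.05. The slope fit was tested on simulated data for 7237 probe sets, of which only a small part was given a known slope. It called 2% of slopes of 0.2, 26% of 0.4, 82% of 0.8 and 78% of 1.2 log2 per hour, and 0.0995% of unchanged ones. Each percent for a known slope rests on few probe sets, so 82% and 78% are not told apart. Other comparisons are descriptions. Genes named array by array were the 3 brightest of each family, the 6 farthest from 1 h each way at each hour, those apart on 1 array, the 5 widest and narrowest ranges, the 3 steepest slopes each way, those with several probe sets, 3 fixed sets, and 2 genes of each related list; other members were named after their values were seen. Members and lists were chosen with earlier results of these data known. No 2 arrays were identical. The number of arrays limits precision. Alternatives covered scaling, floor, filter, probe set choice, symbols, time scale, variance prior, fold, reference and leaving out each array. The 4 sample titles share an ordinal number whose meaning is not stated; whether it marks a batch or a repeat of the experiment is unknown, and no batch could be tested. Other steps used Python 3.11.15 and pandas 2.3.3.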

Additional observations from a re-analysis of the deposited data

How the results depend on the processing

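The limma slope test called 0 ion channel probe sets under every alternative run, and 0 of all probe sets except 30 without the 2 h array (range 0 to 30), with 1 residual degree of freedom. The count of 38 genes above the level stayed within 1.5 times under every alternative but depended on the level. It was 49 with the level at the pooled 30th percentile and 31 at the pooled 50th. Genes above the level on every array numbered 33 (48.5%), and on at least 1 array 50 (73.5%). The other alternatives gave 35 to 40. A share of more than 50% was thus not reached at the pooled 50th percentile or on every array. Genes at least 2-fold from 1 h numbered 3, 2 and 4 at 2, 4 and 6 h. With no filter they were 16, 14 and 12, and at 1.5-fold 17, 12 and 11. With the filter at the 60th percentile they were 1, 1 and 1. At 3-fold they were 0 at 4 h and 1 at 6 h, and under quantile normalization or median centring 1 at 4 h. Without probe sets marked as shared or incomplete they were 5 at 2 h.

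Genes apart from every other array numbered 0, 1, 1 and 2 at 1, 2, 4 and 6 h. With no filter they were 1, 8, 2 and 4, and at 1.5-fold 1, 3, 2 and 5. With the filter at the 60th percentile, and at 3-fold, they were 0 at 4 h and 0 at 6 h. At 6 h they were 4 under quantile normalization and 1 with the floor at the 30th percentile, and at 2 h 3 without the marked probe sets. Leaving out 1 array gave 3 to 4 at 2 h (3 without 1 h or 6 h, 4 without 4 h), 0 to 1 at 4 h (0 without 2 h) and 1 to 3 at 6 h (1 without 4 h, 3 without 2 h).

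The median log2 difference at 2 h, 0.02, was -0.0695 under quantile normalization, -0.0534 under median centring, -0.0782 with the filter at the 60th percentile and -0.14 against the mean of the other 3 arrays. At 6 h, -0.07, it was 0 with no filter and -0.16 without the marked probe sets. Alternatives chosen after seeing the data gave 1 gene 2-fold from 1 h at 4 h, and 0 and 1 apart at 4 and 6 h, with only genes above the level on every array. With each gene's second brightest probe set they gave 2 apart at 2 h and a 4 h median of 0.13 in place of 0.07. Dim ion channel genes highest at 2 h numbered 12 of 30 under quantile normalization and 13 or 14 in the other 4 alternatives, also chosen after seeing the data. The cause of these shifts was not tested. No paired analysis was possible because each hour has 1 array and the hours share 1 replicate number. The 4 arrays and the signal near the floor limit what could be detected.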
